A study of Rattus norvegicus with 3 samples.

Results

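The collagen genes were followed across 3 cultures of fetal rat heart cells, each kept in a different medium. Members were all genes with at least 1 probe set annotated with a single symbol of the form Col, number, a, number. This gave 41 collagen genes, read by 58 probe sets, of 14217 genes with such a probe set on the array. A single probe set read 27 of the collagen genes, and 14 had several. They were grouped by the structure of their protein into 11 fibrillar genes, 5 of basement membrane, 5 of beaded filaments, 3 of short-chain networks, 9 of the fibril-associated class called FACIT, 2 multiplexins, 4 transmembrane collagens, the anchoring fibril gene Col7a1, and Col26a1, which was left unclassed. Col4a3, Col6a4, Col21a1 and Col28a1 had no probe set of their own and were not analysed here.

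The cells were cardiomyocytes isolated by enzymatic digestion from fetuses of the Wistar strain, an outbred laboratory rat, plated for 48 hours and then treated for 24 hours. One culture received cardiac fibroblast-conditioned medium, one skeletal myoblast-conditioned medium and one fresh culture medium, the control. Total RNA of each culture was hybridised to 1 Affymetrix 3' expression array, in a study of paracrine protection of heart cells by myoblasts. How many fetuses were pooled, and whether the cells were purified beyond digestion, is not given in the sources used here. Since there is only 1 array per medium, replicate error cannot be estimated, no test of any difference exists, and the values describe these arrays alone. The number of arrays limits the precision.

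Collagens are secreted or membrane-bound proteins in which 3 chains wind around each other over stretches of repeated glycine-containing triplets. Fibrillar collagens bundle into the load-bearing fibres of the heart's interstitium, where cardiac fibroblasts are the main producers. Network collagens form sheets under endothelium and around each muscle cell, and FACIT and beaded-filament collagens tie these structures together. Chains of 1 type are often encoded by several genes, and a chain assembles only with certain partners, some of them of another type.

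Values were deposited relative to the middle array of each probe set, which has a blank read as 0. More arrays were blank in 16 of the 58 collagen probe sets, with 1 value, and in 8, with 0 values. A 0 there is not a measured equality. The scale is log2. A difference of 1 is therefore 2-fold, but how bright a gene was, and whether it lay above background, is unknown. For the same reason neither the presence of cardiomyocyte markers nor the level of 1 collagen against another can be read. Technical error could be gauged only from 42 probe sets for control transcripts, which are meant to be spiked into each sample at the same amount. Their differences ran from -0.68 to 0.59 for fibroblast medium minus control, from -0.01 to 0.66 for myoblast medium minus control and from -0.48 to 1.02 for myoblast minus fibroblast medium. The range is thus nearly one-sided for myoblast medium minus control. The largest size in each comparison (0.68, 0.66 and 1.02) was used as a limit in both directions.

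Under fibroblast-conditioned medium 5 of 41 collagen genes were at least 2-fold higher than in control, and the background over all genes was 4.26%. These were Col8a1, Col8a2, Col11a1, Col4a4 and Col24a1, which are 12.2% of the collagen genes. Another 3 were at least 2-fold lower, Col6a6, Col26a1 and Col6a3, or 7.32% against a background of 2.6%. In either direction this makes 8 of 41, or 19.5%, and the background was 6.85%. The median difference of the collagen genes was 0, as it was over all genes, with 14 above 0, 18 below 0 and 9 at 0. The middle collagen gene fell among those at 0, which stem from blanks read as 0. Leaving out collagen genes at 0 on all arrays gave a median of -0.008 over 36 genes. Dropping every probe set with fewer than 2 values left 26 collagen genes, with a median of -0.065. The median size of the difference, regardless of sign, was 0.25 among collagen genes and 0.16 among all genes. Past the largest size among the added controls lay 12 collagen genes, 7 higher and 5 lower, which is 29.3% of them against 12.8% of all genes.

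Myoblast-conditioned medium left most collagen genes near their control value. Only Col8a2 was at least 2-fold higher (1 of 41, background 1.35%), and only Col6a6 was at least 2-fold lower (1 of 41, background 0.844%). Together they are 4.88% of the collagen genes, against 2.19% of all genes. The median difference was 0, with 13 genes above 0, 19 below and 9 at 0, and its median size was 0.10 among collagen genes against 0.09 among all genes. Past the largest size among the added controls lay 3 collagen genes, or 7.32%, close to the 5.47% of all genes. Both conditioned media were set against the same control array, so their differences from it are not independent.

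**Figure D1:**
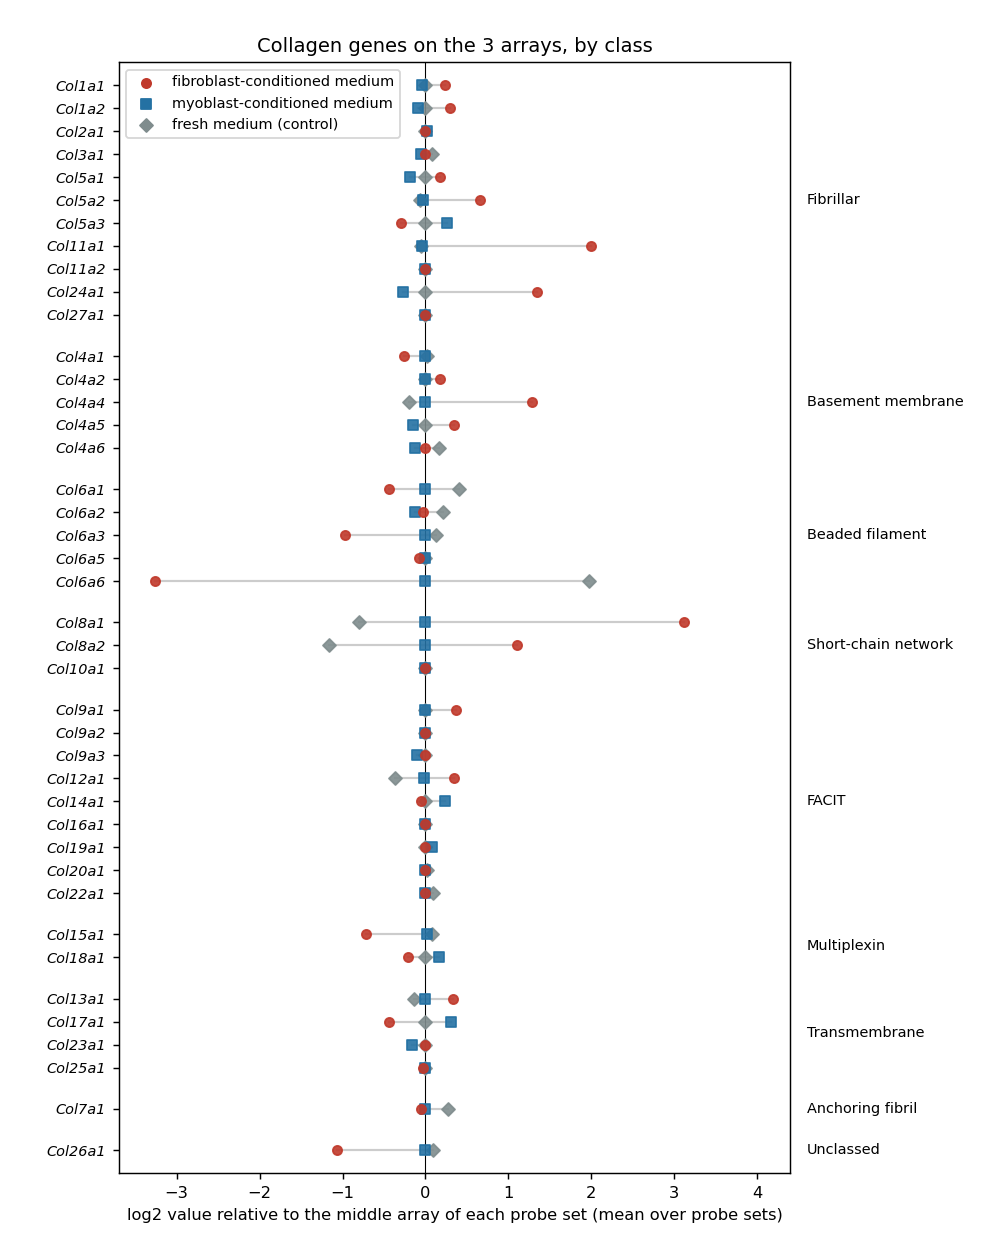
Value of each of 41 collagen genes on the fibroblast medium (red circles), myoblast medium (blue squares) and fresh medium (grey diamonds) arrays, by class; the x axis is the log2 value relative to the middle array of each probe set, averaged over a gene's probe sets, and the grey line joins the lowest and highest array. Fibroblast medium lies far to the right for Col8a1 (3.12) and Col11a1 (1.99) and far to the left for Col6a6 (-3.26), while Col1a1, Col1a2 and Col3a1 differ by at most 0.38 between arrays.

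The short-chain network collagens showed the largest positive differences. Col8a1 and Col8a2 encode the chains of type VIII collagen, a hexagonal network protein of vessel walls and of the corneal endothelium's basement membrane. Col8a1 read 3.12 in fibroblast medium, 0 in myoblast medium and -0.80 in fresh medium, so it was 15.2-fold higher in fibroblast medium than in control (difference 3.92). In myoblast medium it was 1.75-fold higher than in control (0.80). Col8a2 read 1.10 in fibroblast medium, 0 in myoblast medium and -1.16 in fresh medium. That is a difference of 2.26 (4.78-fold) for fibroblast medium and of 1.16 (2.23-fold) for myoblast medium, each against control. Both chains thus stood in the same order, highest in fibroblast medium and lowest in fresh medium. Each has 1 probe set. Col10a1, the third short-chain gene and a marker of hypertrophic cartilage, had no value on any array.

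The 250 bases before the annotated start of both type VIII genes are shown because these partner chains differed in the same direction under both media. They come from RefSeq, build GRCr8. Capitals mark matches to the GC box (GGGCGG), the CCAAT box (CCAAT), the TATA box (TATAAA), the AP-1 motif (TGANTCA) and the TEAD motif M-CAT (CATTCC), on either strand.
Col8a1 (chr11:56246532-56246781, + strand): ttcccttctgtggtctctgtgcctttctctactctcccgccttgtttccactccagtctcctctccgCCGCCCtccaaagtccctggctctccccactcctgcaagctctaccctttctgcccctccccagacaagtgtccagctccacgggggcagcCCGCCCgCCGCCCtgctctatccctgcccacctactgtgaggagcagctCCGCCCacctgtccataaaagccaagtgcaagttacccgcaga
Col8a2 (chr5:143870519-143870768, + strand): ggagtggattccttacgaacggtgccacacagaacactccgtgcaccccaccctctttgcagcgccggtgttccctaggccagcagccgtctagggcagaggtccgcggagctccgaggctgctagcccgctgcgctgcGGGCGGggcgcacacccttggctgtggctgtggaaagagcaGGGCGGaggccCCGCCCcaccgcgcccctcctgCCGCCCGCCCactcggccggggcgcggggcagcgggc
Among the 5 motifs only the GC box was matched in either window, 4 times in Col8a1 and 5 times in Col8a2, where 2 of the matches overlap each other.

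Promoter sequence was matched for 32 of the 41 collagen genes. A GC box was present in 18 of these windows (56.2%), against 32.4% of 27457 gene promoters of the same length. The CCAAT box was found in 9 (28.1%, against 34.3%), the M-CAT motif in 5 (15.6%, against 11.8%), the TATA box in 4 (12.5%, against 13.1%) and the AP-1 motif in 1, Col6a1 (3.12%, against 6.36%). A match describes the letters in the window and is not a measured binding site.

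Among the fibrillar collagens, the major chains had small differences and minor chains passed 2-fold. Col1a1 and Col1a2, which encode type I collagen, the main fibre of the heart, differed little. Col1a1 read 0.24 in fibroblast medium, -0.04 in myoblast medium and 0 in fresh medium. Col1a2 read 0.29 in fibroblast medium, -0.09 in myoblast medium and 0 in fresh medium. Col3a1, the chain of type III collagen, read 0, -0.06 and 0.08 in fibroblast, myoblast and fresh medium. All of their differences from control were smaller in size than the largest of the added controls, although in myoblast medium all 3 lay below the lowest control. The second probe set of Col1a1 differed by 0.46 and the first by 0.0095 between fibroblast medium and control, so even this small difference was unequal between them. The second had a value in fibroblast medium alone, and its other arrays were blanks read as 0.

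Type V collagen, which nucleates type I fibrils, had chains that differed in sign. Col5a2 read 0.66 in fibroblast medium, -0.03 in myoblast medium and -0.07 in fresh medium, a difference of 0.73 (1.66-fold) for fibroblast medium minus control, and its probe sets gave 0.86 and 0.59. Col5a1 was at 0.17 and Col5a3 at -0.30 in the same comparison. In myoblast medium minus control Col5a3 was at 0.26, Col5a2 at 0.04 and Col5a1 at -0.19. Of the type V chains only Col5a2 in fibroblast medium passed the largest size among the added controls, and by a small margin, while Col5a1 in myoblast medium lay below the lowest control.

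Col11a1, a minor fibrillar chain of cartilage and developing tissues that also joins type V chains in fibrils, was the fibrillar gene with the largest difference. It read 1.99 in fibroblast medium, -0.05 in myoblast medium and -0.05 in fresh medium, and was 4.12-fold higher in fibroblast medium than in control (2.04). Its 3 probe sets gave 3.13, 0.49 and 2.50 for that difference, the same sign but unequal sizes. In myoblast medium it differed from control by 0.0036. Col24a1, a minor fibrillar chain known from developing bone in mice, read 1.35 in fibroblast medium, -0.27 in myoblast medium and 0 in fresh medium, on 1 probe set. It was 2.55-fold higher in fibroblast medium than in control (1.35). Col2a1, the chain of cartilage type II collagen, is also a partner of Col11a1. It was at 0 in fibroblast medium minus control and at 0.02 in myoblast medium minus control, with some of its probe sets blank on all arrays. Col11a2 and Col27a1 had no value on any array. In all, 2 of 11 fibrillar genes were at least 2-fold higher in fibroblast medium and 0 lower (median 0.17), against 4.26% and 2.6% of all genes. In myoblast medium 0 of 11 passed 2-fold in either direction (median 0), against 2.19% of all genes.

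The windows before the starts of Col11a1 and Col24a1, the fibrillar genes that passed 2-fold, are given from the same source with the same marks.
Col11a1 (chr2:204508886-204509135, + strand): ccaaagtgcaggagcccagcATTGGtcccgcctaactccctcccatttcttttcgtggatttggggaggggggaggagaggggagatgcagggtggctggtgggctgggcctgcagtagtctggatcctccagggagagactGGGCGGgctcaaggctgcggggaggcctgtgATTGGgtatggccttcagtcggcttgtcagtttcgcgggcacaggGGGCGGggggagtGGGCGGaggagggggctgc
Col24a1 (chr2:236872384-236872633, + strand): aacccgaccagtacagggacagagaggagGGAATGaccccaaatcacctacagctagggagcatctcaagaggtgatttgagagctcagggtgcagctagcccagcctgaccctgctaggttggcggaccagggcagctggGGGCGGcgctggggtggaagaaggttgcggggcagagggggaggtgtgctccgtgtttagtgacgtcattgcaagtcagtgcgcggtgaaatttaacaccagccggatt
Col11a1 held 3 GC boxes and 2 CCAAT boxes, and Col24a1 held 1 GC box and 1 M-CAT motif, so no motif other than the GC box was matched in both.

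Of the 5 measured beaded-filament collagens, 2 lay at least 2-fold below control with fibroblast medium and 0 passed 2-fold upward (median -0.84), where 2.6% of all genes were that much lower. All 5 had a difference below 0, as did 6133 of all 14217 genes, but those of Col6a5 and Col6a2 were smaller in size than the largest of the added controls. Type VI collagen forms fine microfibrils that link basement membranes to the interstitium, classically from the chains of Col6a1, Col6a2 and Col6a3, while Col6a5 and Col6a6 encode alternative chains. Col6a6 read -3.26 in fibroblast medium, 0 in myoblast medium and 1.97 in fresh medium. Against control it was 37.3-fold lower in fibroblast medium (-5.22) and 3.91-fold lower in myoblast medium (-1.97), on 1 probe set. This was the largest difference of any collagen gene in both comparisons with control.

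The 3 classical type VI chains differed less. Col6a3 read -0.97 in fibroblast medium, 0 in myoblast medium and 0.12 in fresh medium, a difference of -1.09 (2.13-fold lower) for fibroblast medium minus control, and its probe sets gave -1.66 and -0.53. Col6a1 read -0.44 in fibroblast medium, 0 in myoblast medium and 0.41 in fresh medium (-0.84 for fibroblast and -0.41 for myoblast medium minus control). Col6a2 had a mean of -0.25 for fibroblast medium minus control, but its probe sets disagreed in sign, at -0.86 and 0.37. It was the only collagen gene whose probe sets did so in that comparison. In myoblast medium both its probe sets were below control, at -0.43 and -0.26. Col6a5 was at -0.08 in fibroblast medium minus control and at 0 in myoblast medium minus control.

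The window before the Col6a6 start is shown because this gene had the largest difference of the family.
Col6a6 (chr8:115352162-115352411, - strand): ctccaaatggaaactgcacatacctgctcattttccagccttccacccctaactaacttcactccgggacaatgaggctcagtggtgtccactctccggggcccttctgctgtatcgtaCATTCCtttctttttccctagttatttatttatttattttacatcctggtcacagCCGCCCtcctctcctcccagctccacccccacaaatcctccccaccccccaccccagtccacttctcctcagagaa
It held 1 M-CAT motif and 1 GC box.

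Of the 5 basement membrane collagens, 1 was at least 2-fold higher in fibroblast medium than in control, against 4.26% of all genes. In myoblast medium 0 passed 2-fold, against 2.19% of all genes. Apart from Col4a4 in fibroblast medium, their differences from control were smaller in size than the largest of the added controls, although Col4a1, Col4a5 and Col4a6 lay below the lowest control in myoblast medium. Col4a1 and Col4a2 encode the type IV chains found under nearly all endothelium and around muscle cells. Col4a1 read -0.26 in fibroblast medium, 0 in myoblast medium and 0.02 in fresh medium, and Col4a2 read 0.17, 0 and 0. The differences for fibroblast medium minus control were -0.28 and 0.17, opposite in sign and both within the range of the added controls. For Col4a2 only fibroblast medium had a value, so its difference was taken against a blank read as 0. Col4a1 had probe sets at -0.56 and 0, but the one at 0 had no value on any array and draws the mean towards 0. Col4a4, a chain best known from the kidney's filtration membrane, read 1.29 in fibroblast medium, 0 in myoblast medium and -0.20 in fresh medium, on 1 probe set. It was 2.81-fold higher in fibroblast medium than in control (1.49) and 1.15-fold higher in myoblast medium (0.20). Its assembly partner Col4a5 was at 0.35 in fibroblast medium minus control and at -0.15 in myoblast medium minus control. Col4a6, a chain of smooth muscle and epithelial basement membranes, was at -0.17 and -0.30 in the same comparisons.

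Col4a1 and Col4a2 lie head to head on chromosome 16 and are known to share a promoter. The 76 bases between their annotated starts, chr16:84885521-84885596 of GRCr8 in RefSeq, are shown on the Col4a1 strand, with the same marks.
Col4a1 to Col4a2: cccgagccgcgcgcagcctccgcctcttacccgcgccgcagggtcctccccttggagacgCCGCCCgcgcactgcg
The GC box was the only motif of the 5 matched between the starts.

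**Figure D2:**
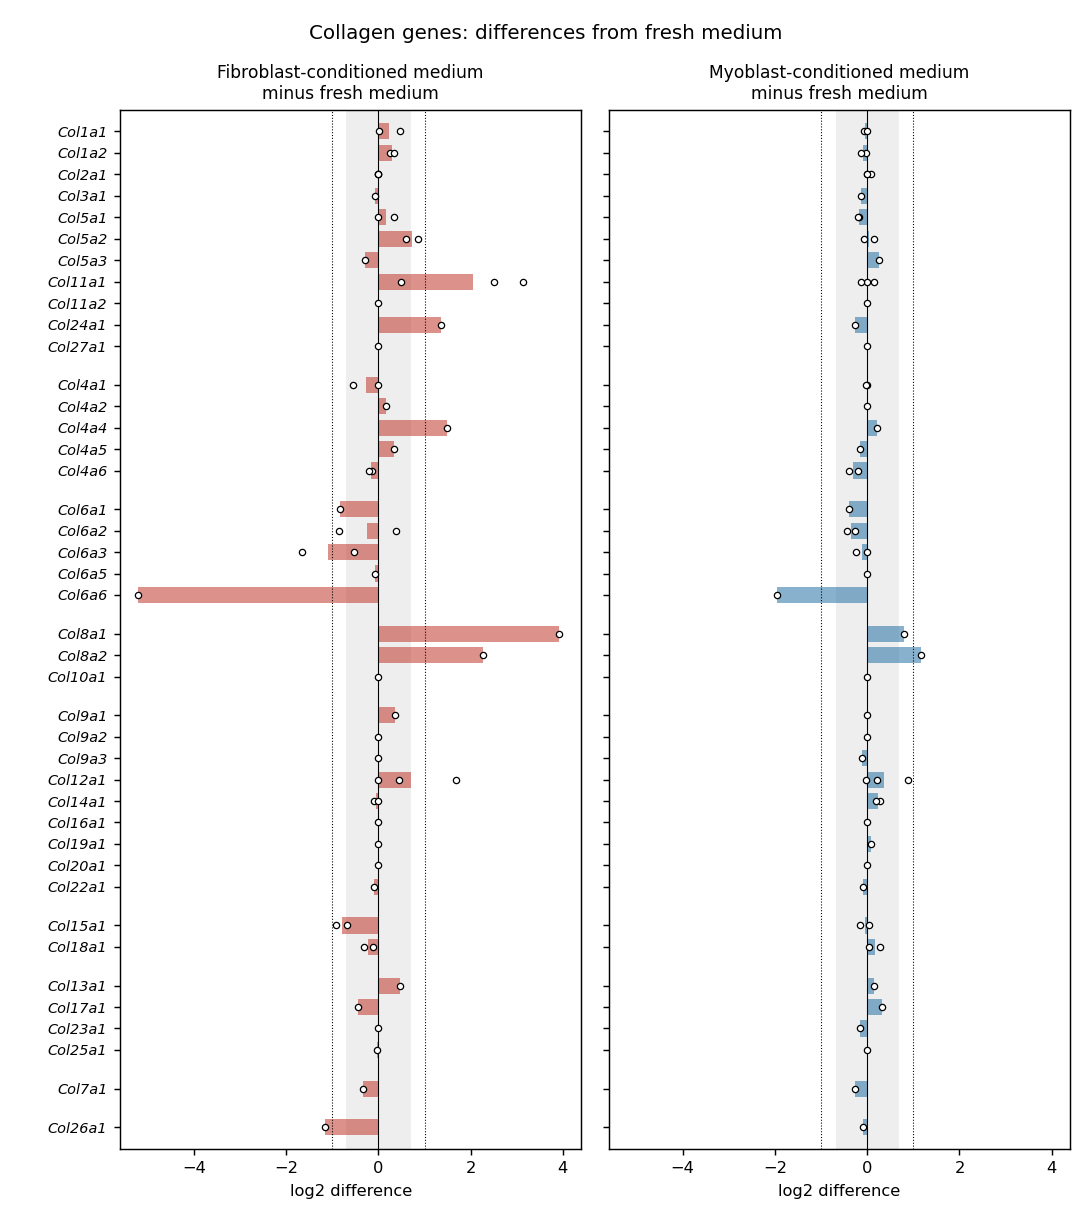
Log2 difference of each collagen gene from fresh medium in fibroblast medium (left panel) and myoblast medium (right panel); bars are the mean over probe sets, open circles single probe sets, dotted lines 2-fold, and the grey band the largest size of difference among the 42 added control probe sets, drawn in both directions. In the left panel 12 bars leave the band, from -5.22 (Col6a6) to 3.92 (Col8a1), and in the right panel 3 do (7.32%, against 5.47% of all genes), Col6a6, Col8a1 and Col8a2.

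By the mean over probe sets, none of the 9 FACIT genes passed 2-fold in either comparison with control, and their median was 0 in both. Col12a1, a fibril-surface collagen of tissues under tension, had the largest mean. It read 0.34 in fibroblast medium, -0.01 in myoblast medium and -0.37 in fresh medium, a difference of 0.71 (1.64-fold) for fibroblast medium minus control. Its 3 probe sets gave 1.69, 0 and 0.44 there, and 0.89, -0.04 and 0.22 for myoblast medium minus control, so 1 probe set alone passed 2-fold. The probe set at 0 was blank on the fibroblast and fresh medium arrays, so its 0 is not a measured equality. Without that probe set the mean for fibroblast medium minus control was 1.07, past 2-fold. Col14a1, a related collagen of the fibril surface, was at -0.05 for fibroblast and 0.23 for myoblast medium minus control. Col9a1, Col9a2 and Col9a3, the chains of cartilage type IX collagen, lay between 0 and 0.37 in fibroblast medium minus control. Of the others, Col16a1 and Col9a2 had no value on any array, and Col19a1, Col20a1 and Col22a1 stayed within 0.09 of control in both media.

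Among the remaining classes, Col15a1, a multiplexin of capillary and muscle basement membranes, was lower in fibroblast medium. It read -0.72 in fibroblast medium, 0.02 in myoblast medium and 0.08 in fresh medium, 1.74-fold below control in fibroblast medium (-0.80), with probe sets at -0.91 and -0.68. Col18a1, the multiplexin whose end fragment is endostatin, was at -0.22 in fibroblast and 0.16 in myoblast medium minus control. The 4 transmembrane collagens ranged from -0.44 (Col17a1, a component of hemidesmosomes) to 0.47 (Col13a1, known from the neuromuscular junction) in fibroblast medium minus control, and from -0.16 (Col23a1) to 0.31 (Col17a1) in myoblast medium minus control. Col25a1 was at -0.03 in fibroblast medium minus control. Col7a1, which anchors epithelia to the stroma, was at -0.33 in fibroblast and -0.27 in myoblast medium minus control. Col26a1 read -1.06 in fibroblast medium, 0 in myoblast medium and 0.09 in fresh medium, on 1 probe set, 2.22-fold below control in fibroblast medium (-1.15).

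Set directly against each other, myoblast medium minus fibroblast medium, the conditioned media differed at least 2-fold in 7 collagen genes, or 17.1%, with a background of 6.06%. Myoblast medium was higher in 2, with a background of 2.12%. Col6a6 was 9.55-fold higher (3.26) and Col26a1 2.09-fold higher (1.06). It was lower in 5, with a background of 3.94%, namely Col8a1 (-3.12), Col11a1 (-2.04), Col24a1 (-1.62), Col4a4 (-1.29) and Col8a2 (-1.10). All 7 passed the largest size among the added controls, 1.02, as did 5.81% of all genes, Col26a1 and Col8a2 by a small margin. Col6a3 (0.97), Col17a1 (0.75) and Col15a1 (0.74) were the next highest in myoblast medium, and Col5a2 (-0.69) the next lowest.

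**Figure D3:**
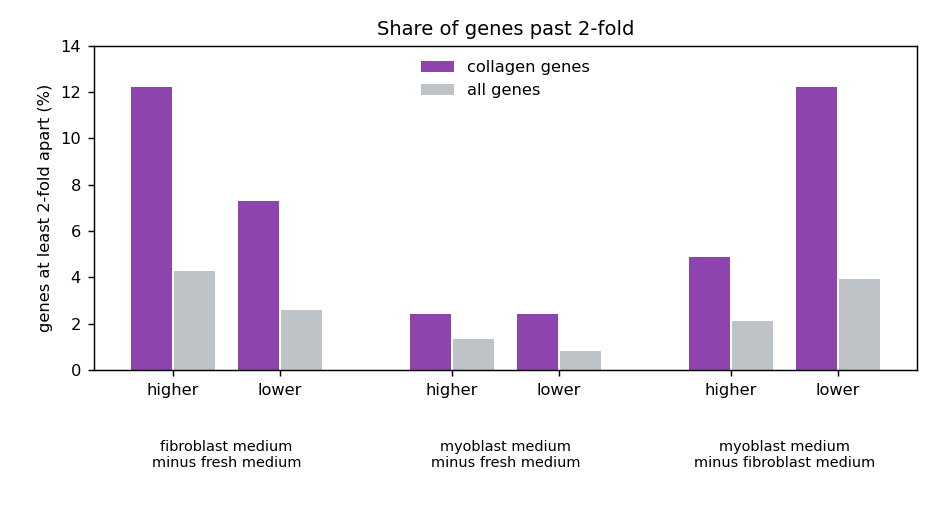
Percent of the 41 collagen genes (purple) and of all 14217 genes (grey) that were at least 2-fold higher or lower in each comparison. Collagen bars exceed the grey bars in each pair, at 12.2% against 4.26% for genes higher in fibroblast medium than in control, but each collagen bar stands for only 1 to 5 genes.

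Genes that modify, cross-link and bind collagen were examined beside the chains, in lists chosen from textbook knowledge with earlier results of these data known. Over all genes, the shares at least 2-fold higher and lower than control were 4.26% and 2.6% with fibroblast medium and 1.35% and 0.844% with myoblast medium, and the list counts are to be read against these. Of 13 measured genes for hydroxylation and glycosylation of collagen chains, 5 were at least 2-fold higher and 1 lower in fibroblast medium (median 0.82). P4ha3, P4ha1 and P4ha2, catalytic subunits of prolyl 4-hydroxylase, were at 2.61, 1.24 and 1.14, and Plod2, a lysyl hydroxylase that directs cross-link type, at 1.83. In myoblast medium 1 of the 13 was at least 2-fold higher, P4ha1 at 1.04, and 0 were lower (median 0.18). Of the 5 measured cross-linking enzymes, 3 were higher and 1 lower in fibroblast medium (median 1.01). Lox, the lysyl oxidase, was 7.43-fold higher (2.89), Loxl1 was at 1.22 and Loxl2 at 1.01, and the transglutaminase Tgm2 was at -1.16. None of the 5 passed 2-fold in myoblast medium, where Lox was at 0.84, Loxl2 at 0.85 and Loxl1 at -0.84.

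Of 7 measured collagen receptors, 3 were at least 2-fold higher and 1 lower in fibroblast medium (median 0.87), against 4.26% and 2.6% of all genes. Itga11, the integrin chain that binds fibrillar collagen on fibroblasts, was at 2.04, Itga1, an integrin chain for type IV collagen, at 1.68, and Adgrg1, an adhesion receptor for type III collagen, at 1.63. Cd36, a scavenger receptor that also binds collagen, was at -1.12. In myoblast medium none of the 7 passed 2-fold (median 0.27). None of the 9 genes for folding and export reached 2-fold in either medium, with medians of 0.01 in fibroblast and 0.11 in myoblast medium. Fkbp10, a collagen chaperone of the endoplasmic reticulum, was at 0.60 and Tmem38b, an ion channel of the same compartment, at 0.46 in fibroblast medium, and Mia3, which loads collagen for export, was at 0.43 in myoblast medium. The 3 measured genes for procollagen processing ranged from 0 to 0.24 in fibroblast medium and from -0.31 to 0 in myoblast medium.

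Proteins that sit on fibrils or in basement membranes differed in both directions. Of 11 fibril-associated genes, 2 were at least 2-fold higher in fibroblast medium and 0 lower (median 0.40), against 4.26% and 2.6% of all genes, the small proteoglycans Fmod at 1.30 and Bgn at 1.02. In myoblast medium 10 of the 11 had a difference below 0 (median -0.31), as did 5718 of all 14217 genes. Only 1 was at least 2-fold lower, Dpt at -1.26, against 0.844% of all genes, and Lum was at -0.93. Of 14 laminin, nidogen and other basement membrane partners of type IV collagen, 11 had a difference below 0 in fibroblast medium (median -0.30), as did 6133 of all 14217 genes, while 1 was at least 2-fold lower and 1 higher. Lama2, the laminin chain of muscle, was at -1.50 and Lamb2 at -0.87, while the epithelial laminin gene Lamb3 was at 1.46 in fibroblast medium and 2.25 in myoblast medium. The median of the 14 was -0.07 in myoblast medium.

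**Figure D4:**
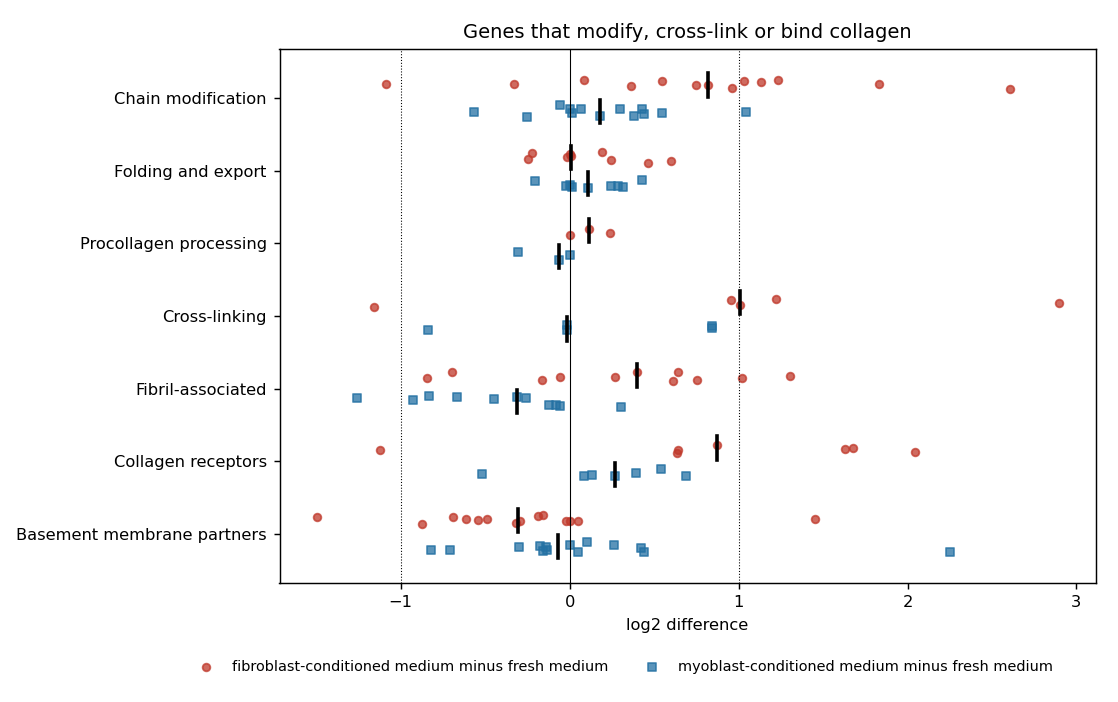
Log2 difference from fresh medium of every measured gene in 7 collagen-related lists, in fibroblast medium (red circles) and myoblast medium (blue squares); black ticks are list medians and dotted lines 2-fold. Medians in fibroblast medium are highest for cross-linking (1.01), receptors (0.87) and chain modification (0.82), and lowest for basement membrane partners (-0.30).

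Markers of several cell types also differed between the same arrays. Their counts stand against the same shares over all genes (4.26% higher and 2.6% lower in fibroblast medium, 1.35% and 0.844% in myoblast medium). In fibroblast medium minus control, 10 of 12 macrophage markers were at least 2-fold higher (range 0.08 to 5.41), 9 of 12 endothelial markers at least 2-fold lower (range -5.65 to 0.58) and 6 of 9 myofibroblast and smooth muscle markers at least 2-fold higher (range -0.65 to 4.0). Among those counted, Ptprc, Aif1, Kdr, Sox17 and Cald1 passed on the mean of probe sets that did not all pass. Those of Aif1 disagreed in sign, at -0.21 and 2.62. Of 12 fibroblast markers, 2 were at least 2-fold higher and 1 lower (median 0.08), with Mfap5 at 3.88, Thy1 at 1.69 and Pdgfra at -1.48. Cardiomyocyte markers had 4 of 11 at least 2-fold lower (range -2.30 to 0.72). In myoblast medium minus control, 4 of 12 endothelial markers were past 2-fold in the lower direction (range -1.38 to 0.05), 2 of 12 fibroblast markers were lower, among them Pdgfra at -1.42, and 3 of 9 myofibroblast markers were higher (range -0.45 to 3.02). Of 12 macrophage markers, 1 was at least 2-fold higher there and 10 had a difference below 0 (median -0.48), and of 11 cardiomyocyte markers 1 was at least 2-fold higher, Myh7 at 1.43 (median -0.19). The part of these cell types in the collagen values was not tested, and fewer cells of a type and less RNA per cell cannot be told apart in such bulk samples.

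Markers of other possible sources differed less uniformly. Of 7 epicardial markers, 2 were at least 2-fold higher and 1 lower in fibroblast medium (range -1.53 to 3.38), against 4.26% and 2.6% of all genes. In myoblast medium 2 were higher, against 1.35% of all genes. Krt18 was at 3.38 in fibroblast and 1.17 in myoblast medium, while Krt19 was at -1.53 and 1.34. None of 4 Schwann cell and neural markers and none of 7 skeletal myoblast markers passed 2-fold in either medium.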

How the data were processed

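The deposited table holds log2 values of 3 arrays, made with RMA per the submitters' processing notes, with software, version and settings not given in the sources used here. Base 2 follows from the use of RMA. The deposited values were centred on each probe set's median over the arrays: of 31099 probe sets, 17117 had 2 values, always of opposite sign, 8002 had 1, 5980 had 0 and 0 had 3. Blanks were read as 0. Of the 58 collagen probe sets, 34 had 2 values, 16 had 1 and 8 had 0.

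The dated platform annotation gave 20832 probe sets 1 symbol, 436 several and 9831 none. Symbols were updated through Entrez IDs with RefSeq, assembly GRCr8 (20764 matched). Probe sets with 1 symbol were averaged for each gene. Differences of at least 1 on the log2 scale were counted. With 1 array per medium there was no test. All collagen genes are described, and up to 4 genes of each other list, from those with the largest size of difference in either conditioned medium. Of 161 entries in these 15 lists, 25 had no probe set of their own. Members and lists were chosen with earlier results of these data known. Counting was tested on simulated data for fibroblast medium minus control over 14217 genes. All 200 of 200 genes changed by 2 on the log2 scale were recovered, and 52 unchanged genes passed 2-fold. The planted change lay well past the threshold of 1, the noise was set by choice, and every simulated probe set had 2 values. This checks the counting only and gives no error rate for the real arrays. Alternatives tried were other summaries of probe sets, fewer probe sets, centring of arrays, leaving out genes at 0, and other fold thresholds. Python 3.11.15, NumPy 2.4.6, pandas 2.3.3 and Matplotlib 3.10.9 were used.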

Additional observations from a re-analysis of the deposited data

How the results depend on the processing

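Collagen counts and medians were recomputed under 8 alternatives, and in 58 of 66 recomputations a count stayed within 1.5 times its value or a median moved by less than the SD of the added control transcripts. The other 8 came from the fold threshold, by construction. Part of the sameness was fixed in advance as well. Leaving out genes at 0 cannot change a 2-fold count, and 27 of the 41 collagen genes have 1 probe set. Centring of arrays left every count over all genes unchanged. The 58 are therefore not a measure of stability. At 1.5-fold, 5 collagen genes were lower in fibroblast medium than in control, 2 were higher in myoblast medium than in control, and 5 were higher in myoblast than in fibroblast medium. At 3-fold, 3 were higher and 1 lower in fibroblast medium than in control, 0 were higher in myoblast medium than in control, and in myoblast medium minus fibroblast medium 1 was higher and 3 were lower. Over all genes, the 1.5-fold threshold gave 1293 higher and 991 lower in fibroblast medium and 536 higher and 407 lower in myoblast medium than in control, and the 3-fold threshold gave 262, 141, 54 and 21. Myoblast minus fibroblast medium gave 946 higher and 1186 lower at 1.5-fold, and 84 and 255 at 3-fold. With the probe set of the widest range, Col12a1 reached 1.69 in fibroblast medium minus control and Col6a3 1.42 in myoblast minus fibroblast medium, both then past 2-fold, and Col11a1 was at 3.13 and Col6a2 at -0.86 in fibroblast medium minus control. With only probe sets that had 2 values, Col12a1 was at 1.07 and Col6a3 at 1.42 in their respective comparisons, again past 2-fold. No collagen gene past 2-fold lost that under these summaries or probe set choices. For most of them the outcome was fixed in advance. Col8a1, Col8a2, Col4a4, Col24a1, Col6a6 and Col26a1 each have 1 probe set, which gives the same value under every such choice. Signal over background is unknown, which limits statements on dim genes. No paired analysis was possible because each medium has 1 array.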

Other observations

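The fibroblast medium array stood farthest from the middle array in 22 of 36 collagen genes with any value (61.1%), as the highest in 11 and the lowest in 11. Over all 12590 genes with a value it did so in 51.3%. The myoblast medium array stood farthest in 6 of the 36 collagen genes (16.7%, against 23.5% of all genes) and the fresh medium array in 8 (22.2%, against 25.3%). Part of these counts was fixed by blanks read as 0. Only the fibroblast medium array had a value for Col4a2, Col6a5, Col9a1 and Col25a1. Only the myoblast medium array had a value for Col2a1, Col9a3, Col19a1 and Col23a1, and only the fresh medium array for Col20a1 and Col22a1. In such genes the array with a value is farthest by construction. Such cases were not counted over all genes.

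Values of collagen genes that neighbour each other in the genome were set side by side. RefSeq, assembly GRCr8, places 7 pairs of collagen genes side by side among protein-coding genes, and both genes were measured in 5 pairs. Col6a6 and Col6a5, neighbours on chromosome 8 that encode alternative type VI chains, were at -5.22 and -0.08 in fibroblast medium minus control. On chromosome 9, Col3a1 and Col5a2 were at -0.08 and 0.73, and Col9a1 and Col19a1 at 0.37 and 0. Col6a1 and Col6a2 on chromosome 20 were at -0.84 and -0.25, and the head-to-head pair Col4a1 and Col4a2 on chromosome 16 at -0.28 and 0.17. In myoblast medium minus control, Col6a6 was at -1.97 and Col6a5 at 0, and Col6a1 and Col6a2 were at -0.41 and -0.35.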
